A study of Mus musculus with 12 samples.

Results

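The genes described here are the axon guidance ligands and receptors of the injured spinal cord. They were chosen by name from the deposited table: every symbol that starts with SEMA and a digit, PLXN, EPHA, EPHB, EFNA, EFNB, ROBO and a digit, NTN and a digit or UNC5, together with SLIT1, SLIT2, SLIT3, NRP1, NRP2 and DCC. This gave 64 of the 13957 symbols in the table, 64 listed above the lesion and 57 of them also listed below it. Of these, 33 encode ligands and 30 encode receptors. The remaining match, UNC50, shares only its first letters with the netrin receptors and encodes a protein of the Golgi and inner nuclear membrane, so it is kept in the counts and out of the families. The rule takes names only and no measured value, but it was set with earlier results of these data known.

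RNA was sequenced from spinal cord of male mice that express the human apolipoprotein E variant ApoE4, collected 14 days after a motor-incomplete contusion at thoracic level 9, with surgery at 4 months of age. All 12 libraries come from injured ApoE4 mice, so no uninjured cord and no ApoE3 cord enters any comparison. The mice carried either 2 normal alleles of synj1, labelled homozygous and written synj1+/+, or 1 inactive allele, labelled heterozygous and written synj1+/-. Tissue was taken directly rostral to the lesion (above) or directly caudal to it (below), which gives 4 groups of 3 libraries: synj1+/+ above, synj1+/- above, synj1+/+ below and synj1+/- below. No cell type or driver is named for the inactive allele, and each segment mixes neurons, glia, vessels and invading cells. For every gene and site, the table holds 1 value a genotype that combines the 3 libraries. The spread between animals can therefore not be computed, and no difference given here has a replicate check, an error or a test.

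Growing axons are steered by secreted and membrane-bound cues that are read by receptors on the growth cone. Semaphorins bind plexins, the secreted class 3 members mostly with a neuropilin as co-receptor. Ephrins bind Eph receptor tyrosine kinases and can also signal back into the cell that carries them, Slits bind Robo receptors, and netrins bind DCC and the UNC5 receptors. In the adult cord many of these molecules remain on neurons, glia and vessels, and several semaphorins and ephrins are known as repulsive cues around a spinal cord injury.

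The values were taken to be FPKM, fragments counted per kilobase of transcript and scaled for sequencing depth, a unit meant for comparing genes of unequal length. The unit was inferred from the values and is not stated with them. Every ranking or sum of levels across genes rests on this reading. The methods refer to upper quartile normalization for this scaling. A difference between groups is given as the log2 ratio of FPKM + 1, a scale on which the differences of low genes shrink. A gene is counted as higher or lower, or past the fold, when FPKM + 1 was at least 25% higher in 1 of the 2 groups, an absolute log2 ratio of 0.32. The share of all genes that passed the same fold is printed beside the first count of each comparison and applies to the family counts that follow it.

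SYNJ1, the gene with the inactive allele, was higher where the labels give 1 working copy. The combined FPKM above was 1904 for synj1+/+ and 2403 for synj1+/-, a log2 ratio of 0.34, and the values below were 1846 and 2592, a log2 ratio of 0.49. The groups are therefore named by their labels only, and every genotype direction that follows depends on those labels: higher and lower mean higher and lower where the label is synj1+/-.

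Markers of several cell types also differed between the groups. For the counts that follow, 4.18% of all genes were higher and 7.43% lower above the lesion. Below it the shares were 8.07% and 11.5%. Neuronal markers, taken as the check of the tissue named in the labels, spinal cord, summed to 16904 FPKM in synj1+/+ and 18881 in synj1+/- above the lesion, with 13 of 14 listed and 0 past the fold, and to 13984 and 17597 below it, with 11 of 14 listed and 4 higher. Fibroblast and meningeal markers summed to 299 and 213 above, with 7 of 10 lower, and to 509 and 88.0 below, where 9 of the 9 listed were lower with a median log2 ratio of -2.71. Microglia and macrophage markers summed to 2481 and 1715 above, with 8 of 12 lower, and to 2837 and 1834 below, with 7 of 9 lower. Astrocyte markers summed to 20379 and 17161 above, with 1 of 10 lower, and to 18385 and 14773 below, with 2 of 9 lower. Erythroid markers were higher in synj1+/-, summing to 248 and 1133 above (5 of 5 higher) and to 629 and 825 below (3 of 5 higher), while endothelial markers summed to 210.4 and 218 above (1 of 9 higher) and to 274 and 258 below (1 of 9 lower). Oligodendrocyte and precursor markers, 7 of 11 listed, summed to 12054 and 11552 above and to 11302 and 10654 below, with 0 past the fold at either site. No marker was listed at 0. In the fibroblast markers the synj1+/+ group below the lesion stood apart from the other 3. Over the 9 listed at both sites, the sums were 70.0 in synj1+/+ above, 54.6 in synj1+/- above, 509 in synj1+/+ below and 88.0 in synj1+/- below. Over markers listed at both sites, this group also had the highest microglial and endothelial sums and the lowest neuronal sum. Its astrocyte, oligodendrocyte and erythroid sums were neither the highest nor the lowest. The part of these cells in the results was not tested, and in bulk tissue fewer cells of a type and less RNA per cell cannot be told apart.

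The promoters of 4 guidance genes are shown because these genes had the 2 highest and the 2 lowest ratios between the genotypes below the lesion among those with a mean FPKM of at least 10 and an entry in the promoter table of RefSeq (build GRCm38.p6). Each run of 300 bases covers a start site that RefSeq gives for the gene and the bases just before it, 5′ to 3′ on the strand of the gene. For NRP1 this site lies inside the gene as GENCODE draws it, and the whole run does too. The capitals mark the GC box, GGGCGG or its reverse complement CCGCCC, the short motif that zinc finger factors of the Sp family are known to bind. EFNA3 (chr3:89322890-89323189, minus strand) holds 3 GC boxes and SEMA6C (chr3:95160170-95160469, plus strand) also holds 3, of which 2 overlap. PLXNB2 (chr15:89180739-89181038, minus strand) holds 4 and NRP1 (chr8:128358823-128359122, plus strand) holds 1.
EFNA3: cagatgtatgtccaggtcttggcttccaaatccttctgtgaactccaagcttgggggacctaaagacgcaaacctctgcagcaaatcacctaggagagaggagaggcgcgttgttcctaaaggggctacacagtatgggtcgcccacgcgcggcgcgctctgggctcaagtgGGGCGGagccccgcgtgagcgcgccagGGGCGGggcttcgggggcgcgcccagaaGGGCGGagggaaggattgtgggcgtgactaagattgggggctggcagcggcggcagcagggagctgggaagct
SEMA6C: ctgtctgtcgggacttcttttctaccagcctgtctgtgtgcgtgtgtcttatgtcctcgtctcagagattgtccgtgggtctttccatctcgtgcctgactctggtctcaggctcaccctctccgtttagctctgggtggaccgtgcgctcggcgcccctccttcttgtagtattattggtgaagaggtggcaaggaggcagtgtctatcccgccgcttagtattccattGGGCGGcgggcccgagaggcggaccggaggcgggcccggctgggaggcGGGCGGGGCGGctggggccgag
PLXNB2: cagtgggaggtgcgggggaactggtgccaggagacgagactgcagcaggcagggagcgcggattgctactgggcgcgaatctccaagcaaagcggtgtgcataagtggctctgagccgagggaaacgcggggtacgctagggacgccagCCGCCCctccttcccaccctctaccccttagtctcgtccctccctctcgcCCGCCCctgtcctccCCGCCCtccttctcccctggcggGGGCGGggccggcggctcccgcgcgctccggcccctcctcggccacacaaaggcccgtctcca
NRP1: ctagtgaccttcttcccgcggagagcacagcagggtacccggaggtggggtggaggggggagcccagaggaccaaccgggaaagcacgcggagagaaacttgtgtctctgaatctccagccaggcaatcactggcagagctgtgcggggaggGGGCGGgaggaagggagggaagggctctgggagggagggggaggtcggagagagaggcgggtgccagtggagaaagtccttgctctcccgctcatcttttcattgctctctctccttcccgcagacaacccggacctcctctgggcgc

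Motifs were searched on both strands in all 32851 promoters of the table, of which 70 belong to 54 of the guidance genes. The GC box stood in 51 of the 70 guidance promoters (72.9%) and in 35.7% of all promoters. Guidance promoters were also richer in G and C, with a median GC content of 64.8% against 52.7% for all promoters. The set of all promoters covers 27025 genes and was not limited to genes measured in this cord. The guidance promoters were not compared with those of measured genes only, so these shares do not show a trait of guidance genes. The E-box CACGTG stood in 5 guidance promoters and in 7.15% of all promoters, the ETS site CCGGAAG in 3 and 8.86%, the TATA box TATAAA in 2 and 13.6%, and the cAMP response element TGACGTCA in 0 and 1.79%. Of the 9 genes that were higher in synj1+/- below the lesion, 6 had an entry, and 10 of their 12 promoters held a GC box. All 9 lower genes had an entry, and 8 of their 11 promoters held one. Promoters of the same gene are counted separately. The motif was thus common in both directions, and a match is only a match of letters.

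Levels of the guidance genes ranged over 3 orders of magnitude. SEMA6D, a transmembrane semaphorin, was the highest, with an FPKM of 1484 in synj1+/+ and 1479 in synj1+/- above the lesion, and was not listed below it. The lowest was SEMA3E, a secreted semaphorin known from vessel patterning, which lay between 1.11 and 1.45 in the 4 groups. The highest receptors were the B-type plexins PLXNB2, at 295.6 to 432 FPKM, and PLXNB1, at 254 to 328, both receptors for class 4 semaphorins. By group, ligands listed at both sites summed to 1791 FPKM in synj1+/+ above, 1894 in synj1+/- above, 1525 in synj1+/+ below and 1870.3 in synj1+/- below. Receptors summed to 2065, 1990.3, 1999 and 1936 in the same order. The lowest ligand sum was that of synj1+/+ below, whereas the receptor sums of the 4 groups lay closer together. Such sums rest mostly on the abundant genes, and the ligand sums leave out SEMA6D and SEMA4D, not listed below. Within the receptor sum, synj1+/+ below held the highest PLXNB2 value and the lowest PLXNB1 value of the 4 groups.

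**Figure D1:**
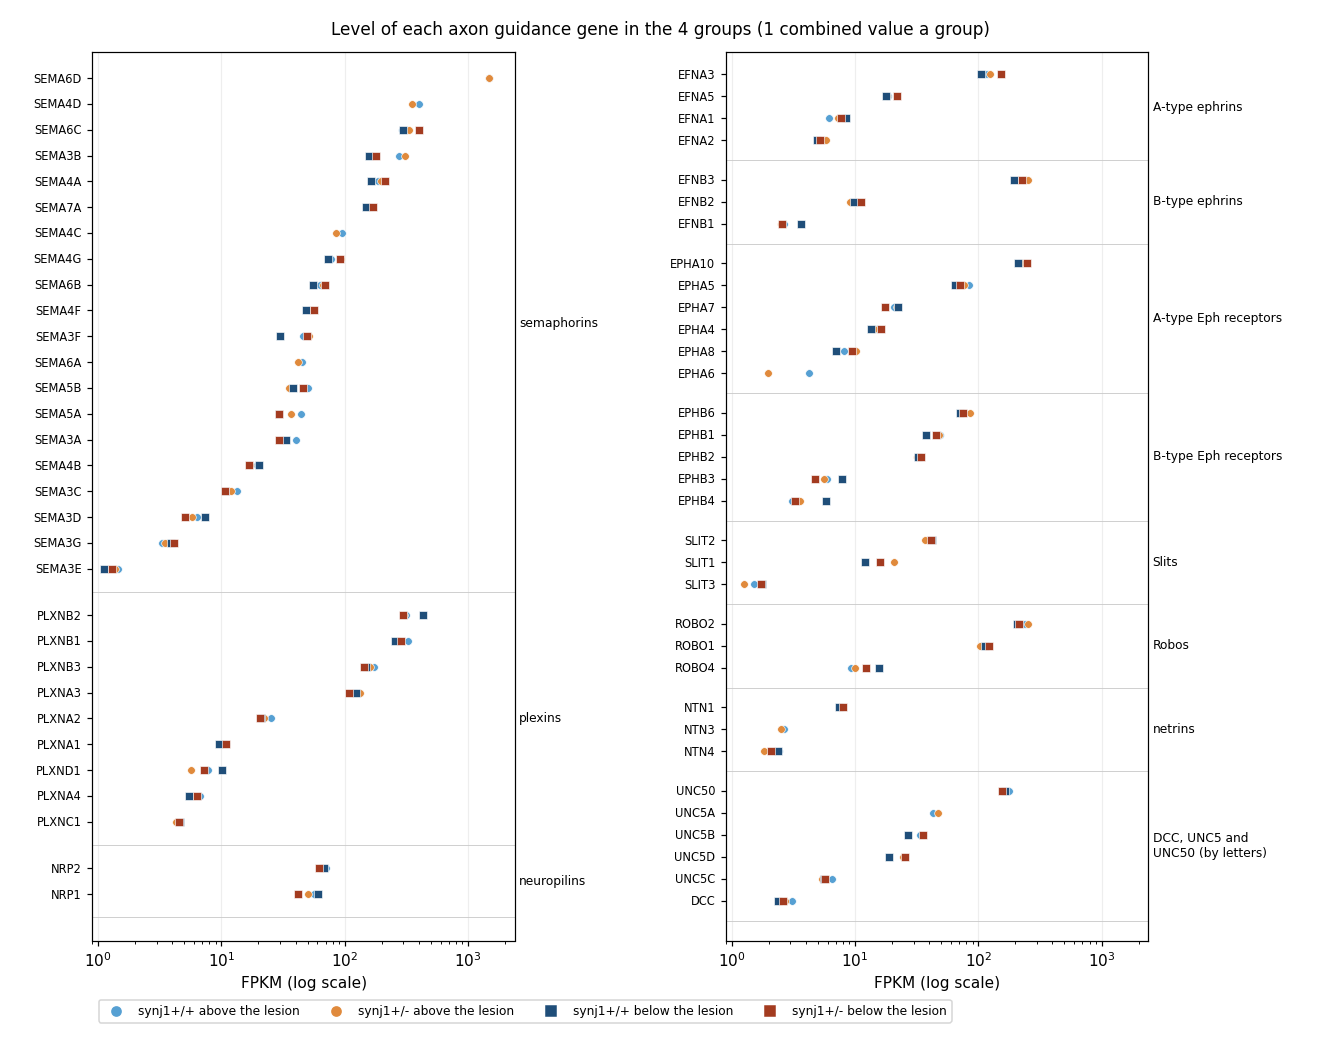
FPKM of each of the 64 guidance genes (log axis) in the 4 groups, circles above and squares below the lesion, sorted within families by mean level; each point is 1 combined value of 3 libraries and has no error bar. Levels run from SEMA3E near 1 to SEMA6D at 1484 in synj1+/+ above, and within a gene the 4 groups mostly lie close together, with PLXNB2, EPHB4, ROBO4 and SEMA3F among those where synj1+/+ below stands apart.

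The first comparison asked which guidance genes differed between the genotype groups above the lesion. Only SLIT1 was higher in synj1+/-, 1 of 64 genes, where 4.18% of all 13642 genes passed the fold in that direction. EPHA6, PLXND1, SEMA3A and SEMA5B were lower, 4 of 64 or 6.25%, where 7.43% of all genes were. Together 7.81% of the guidance genes passed the fold in either direction and 11.6% of all genes did. The median log2 ratio was -0.05 over the 64 genes and -0.00 over all genes, with 24 ratios over 0 and 40 under 0. Of the 9 plexins, 8 had a ratio under 0, PLXNA3 being the exception at 0.10, but only PLXND1 passed the fold.

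Below the lesion more guidance genes passed the fold, in both directions. EFNA3, EPHA8, SEMA3F, SEMA4A, SEMA6B, SEMA6C, SLIT1, UNC5B and UNC5D were higher in synj1+/-, 9 of 57 or 15.8%, where 8.07% of all 12335 genes were. EFNB1, EPHA7, EPHB3, EPHB4, NRP1, PLXNB2, PLXND1, ROBO4 and SEMA3D were lower, also 9 of 57, where 11.5% of all genes were. With only genes of a mean FPKM of at least 10, 8 were higher and 4 lower, where 6.98% and 9.37% of all such genes were. In either direction 31.6% of the guidance genes and 19.6% of all genes passed the fold. The median was 0.09 over the 57 genes and 0.01 over all genes, with 36 ratios over 0 and 21 under 0. Of 28 ligands, 6 were higher, 2 lower and 20 had a ratio over 0, with a median of 0.15. Of 28 receptors, 3 were higher, 7 lower and 16 had a ratio over 0, with a median of 0.08. Whether ligands and receptors differ was not tested, and both had more ratios over 0 than under it. The 2 genes just past the limit were SEMA6B at 0.32 and ROBO4 at -0.33, and the 2 just short of it were SEMA4G at 0.32 and EFNA5 at 0.29.

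**Figure D2:**
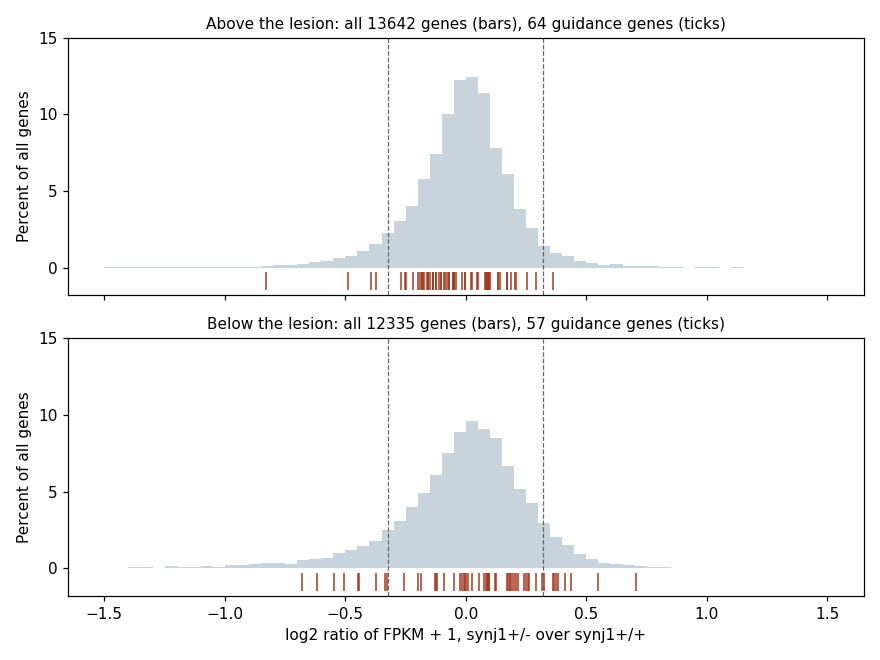
Distribution of the log2 ratio of FPKM + 1, synj1+/- over synj1+/+, for all genes (bars, percent of genes; the few genes beyond the drawn bars are left out) and for the guidance genes (ticks), above the lesion in the upper panel and below it in the lower one; dashed lines mark the fold, 0.32 in either direction. Above the lesion 5 of 64 ticks lie past the lines, and below it 18 of 57 do, 9 on each side.

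Across the sites, 18 of the 57 genes had a ratio over 0 at both, 16 had a ratio under 0 at both, 18 were under 0 above and over 0 below, and 5 were over 0 above and under 0 below. Past the fold in the same direction at both sites were SLIT1, higher, and PLXND1, lower, and 0 genes passed it in opposite directions. Each genotype ratio rests on its own pair of groups, but by the animal numbers in the methods both segments of a genotype were taken from the same mice, although the labels tie no segment to a mouse, so agreement across the sites does not come from separate animals. Whether the ratio of a gene differs between the sites was not tested.

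**Figure D3:**
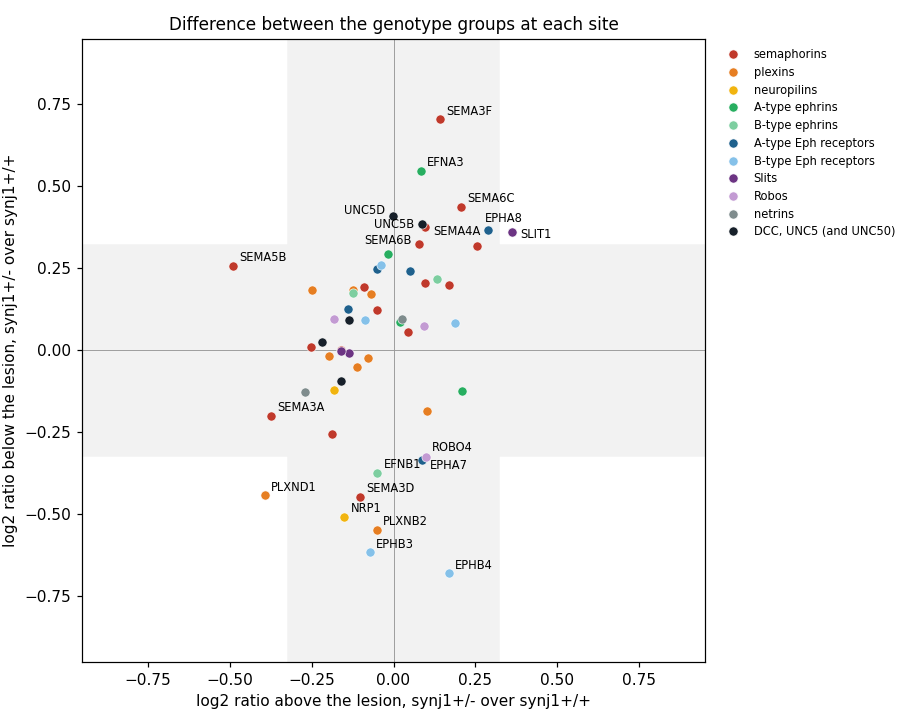
Log2 ratio of FPKM + 1, synj1+/- over synj1+/+, above the lesion (horizontal axis) and below it (vertical axis) for the 57 guidance genes listed at both sites, coloured by family; grey bands mark ratios within 0.32 of 0, and genes past it at either site are named. The points spread further along the vertical axis, from EPHB4 at -0.68 to SEMA3F at 0.71, than along the horizontal one, and SLIT1 and PLXND1 are the 2 genes past the bands on both axes in the same direction.

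Among the semaphorins, all 20 annotated members were listed above the lesion and 16 below it. Below the lesion 13 of 16 ratios were over 0 with a median of 0.20, and 4 genes were higher and 1 lower, where 8.07% and 11.5% of all genes were. SEMA3F, a secreted repulsive ligand of NRP2 and plexin A receptors (chr9:107681500-107710475, minus strand, GRCm38), had the highest ratio of all guidance genes. The FPKM above was 46.4 for synj1+/+ and 51.3 for synj1+/-, and that below was 29.8 and 49.2, log2 ratios of 0.14 and 0.71. The value of synj1+/+ below was thus the low one, and the other 3 groups lay within 46.4 to 51.3.

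The transmembrane semaphorins SEMA4A, SEMA6B and SEMA6C were also higher in synj1+/- below the lesion. SEMA6C (chr3:95160457-95174024), a class 6 semaphorin found on neurons, had an FPKM of 290.0 and 335 above and of 295 and 399.8 below, with ratios of 0.21 and 0.44. SEMA4A, a class 4 semaphorin with roles in neurons and immune cells, had 185 and 198 above and 165 and 214 below, with ratios of 0.10 and 0.38. SEMA6B, which can bind plexin A receptors, had 63.4 and 67.0 above and 55.3 and 69.5 below, with ratios of 0.08 and 0.32. In SEMA6C the synj1+/- group below stood above the rest, whereas in SEMA4A and SEMA6B the synj1+/+ group below was the lowest and the synj1+/- group below the highest. Over the 9 members of classes 4 to 7 listed below the lesion, 8 ratios were over 0, 3 genes were higher, 0 were lower and the median was 0.26. SEMA4B, at 20.2 and 16.8, was the exception with a ratio of -0.25.

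The class 3 semaphorins, secreted cues that mostly act through neuropilins, were divided. SEMA3F was higher below the lesion and SEMA3D was lower, while the other 5 did not pass the fold, and the median of the 7 was 0.06. SEMA3D, at 6.30 and 5.81 FPKM above and 7.31 and 5.10 below, had ratios of -0.10 and -0.45. SEMA3A, the founding repulsive semaphorin, was lower in synj1+/- above the lesion, at 40.2 and 30.8, a ratio of -0.37, and had 33.7 and 29.2 below it, a ratio of -0.20. Both SEMA3A values of synj1+/- lay under those of synj1+/+, and only the one above passed the fold. SEMA3B (157 to 308 FPKM in the 4 groups) was the highest of the class, with ratios of 0.17 and 0.20.

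SEMA5B, a transmembrane semaphorin of class 5 (chr16:35541145-35664732), had ratios of opposite sign at the 2 sites. Its FPKM was 50.2 in synj1+/+ and 35.5 in synj1+/- above the lesion, a ratio of -0.49, and 38.1 and 45.8 below it, a ratio of 0.26 that did not pass the fold. The highest value was that of synj1+/+ above and the lowest that of synj1+/- above. SEMA4D, a class 4 semaphorin of oligodendrocytes and immune cells that binds PLXNB1, was listed only above, at 400.2 and 354, a ratio of -0.18. Also listed only above were SEMA4C, with a ratio of -0.18, SEMA6A, with -0.10, and SEMA6D, with -0.00.

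The semaphorin receptors are the plexins and neuropilins. Of the 9 plexins, 6 had a ratio under 0 below the lesion, 2 were lower and 0 were higher, with a median of -0.02, and both neuropilins had ratios under 0 at both sites. PLXNB2, a receptor for class 4 semaphorins that is also found on microglia and other non-neuronal cells (chr15:89155549-89180788, minus strand), had an FPKM of 315 in synj1+/+ and 304 in synj1+/- above, and 432 and 296 below. The log2 ratios were -0.05 and -0.55, and the synj1+/+ group below was the highest, with the other 3 groups at 296 to 315. PLXND1, best known as the endothelial receptor of SEMA3E, was lower at both sites, with 7.74 and 5.66 above and 10.1 and 7.20 below, ratios of -0.39 and -0.44. NRP1, the co-receptor of SEMA3A and of vascular endothelial growth factor (chr8:128358604-128503363), had 56.5 and 50.8 above and 60.4 and 42.2 below, ratios of -0.15 and -0.51. In NRP1 the 2 values of synj1+/- were under the 2 of synj1+/+, and in NRP2, the main co-receptor of SEMA3F, the values were 71.1 and 62.6 above and 67.6 and 62.2 below, ratios of -0.18 and -0.12.

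PLXNB1 differed from PLXNB2 in direction below the lesion. It had an FPKM of 328 and 276 above, a ratio of -0.25, and of 254 and 289 below, a ratio of 0.18, neither past the fold. The remaining plexins had ratios between -0.20 and 0.10 above and between -0.19 and 0.18 below. PLXNA1 shares 10.7% of its exon bases with another gene, and because the library kit does not mark strand, its values are uncertain.

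Ephrins and Eph receptors formed the other large family. EFNA3, a membrane-anchored A-type ephrin (chr3:89313899-89322965, minus strand), had the next highest ratio below the lesion. The FPKM above was 118 for synj1+/+ and 125 for synj1+/-, and that below was 104 and 153, ratios of 0.08 and 0.55. The synj1+/- group below was the highest and the synj1+/+ group below the lowest. A gene on the opposite strand, Gm15998, covers 14.1% of the exon bases of EFNA3, so reads of the 2 genes cannot be told apart there. The other A-type ephrins did not pass the fold: EFNA5, with 17.8 and 22.1 below, came closest at 0.29, EFNA2 had 0.09, and EFNA1, which lies 32.8 kb from EFNA3, had -0.12.

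Of the B-type ephrins, which cross the membrane and can signal back into their own cell, EFNB1 was lower in synj1+/- below the lesion. EFNB1 was a low gene, with an FPKM of 2.66 and 2.53 above and 3.64 and 2.58 below, ratios of -0.05 and -0.37. EFNB3, the midline ephrin of the spinal cord that is also made by oligodendrocytes, was much higher, with 232 and 255 above and 194 and 226 below, ratios of 0.13 and 0.22. EFNB2, known from arteries and neurons, had 9.95 and 9.05 above and 9.81 and 11.2 below, ratios of -0.12 and 0.18.

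The A-type Eph receptors were led by EPHA10, a receptor that lacks kinase activity, at 213 and 221 FPKM above and 210.1 and 249 below, ratios of 0.05 and 0.24. EPHA5, a neuronal receptor, followed with 84.6 and 76.9 above and 65.3 and 71.4 below, ratios of -0.14 and 0.13. Neither receptor passed the fold. EPHA8 was higher below the lesion, with 8.16 and 10.2 above and 7.05 and 9.38 below, ratios of 0.29 and 0.37, so that both values of synj1+/- were over both of synj1+/+. EPHA7 went the other way below the lesion, with 20.6 and 22.0 above and 22.3 and 17.5 below, ratios of 0.09 and -0.33. EPHA4, the receptor that has been studied most as a block to regrowth after spinal cord injury, did not pass the fold, at 14.9 and 14.3 above and 13.6 and 16.4 below, ratios of -0.05 and 0.25. EPHA6, listed only above, had the lowest ratio there at -0.83, from an FPKM of 4.28 and 1.97.

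Among the B-type Eph receptors, EPHB3 and EPHB4 were lower in synj1+/- below the lesion and 0 of 5 were higher. EPHB4, the venous receptor of EFNB2 (chr5:137350109-137378669), had an FPKM of 3.08 in synj1+/+ and 3.59 in synj1+/- above, and 5.80 and 3.24 below, ratios of 0.17 and -0.68. EPHB3 had 5.99 and 5.65 above and 7.85 and 4.77 below, ratios of -0.07 and -0.62. In both, synj1+/+ below was the highest group. The more abundant members did not pass the fold: EPHB6, which has no kinase activity, had ratios of 0.19 and 0.08, EPHB1 had -0.04 and 0.26, and EPHB2 had -0.09 and 0.09.

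SLIT1, a repulsive ligand of the Robo receptors found mainly in neurons (chr19:41600257-41743665, minus strand), was the one guidance gene higher at both sites. Its FPKM was 16.0 in synj1+/+ and 20.9 in synj1+/- above, and 12.2 and 15.9 below, and both ratios were 0.36. Within each site synj1+/- was the higher group, but the synj1+/- value below was under the synj1+/+ value above. SLIT2 (36.8 to 41.9 FPKM) and SLIT3 (1.26 to 1.75) did not pass the fold, with ratios of -0.14 and -0.16 above and of -0.01 and -0.00 below.

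Of the Robo receptors, only ROBO4 passed the fold. ROBO4, an endothelial member, had an FPKM of 9.22 and 9.93 above and 15.6 and 12.3 below, ratios of 0.10 and -0.33. Both values below were over both values above. The neuronal receptors were far higher, ROBO2 with 238 and 254 above and 205 and 216 below, ratios of 0.09 and 0.07, and ROBO1 with 117 and 103 above and 114 and 122 below, ratios of -0.18 and 0.10.

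The netrin receptors UNC5B and UNC5D, which mediate repulsion from netrin, were higher in synj1+/- below the lesion. UNC5D had an FPKM of 24.8 in both groups above, and 19.0 and 25.5 below, ratios of -0.00 and 0.41. UNC5B had 33.7 and 35.8 above and 26.9 and 35.5 below, ratios of 0.09 and 0.38. In both genes the synj1+/+ group below was the low one and the other 3 groups lay close together. All 4 receptors of DCC and UNC5 listed below had a ratio over 0, UNC5C with 0.03 and DCC, the attractive netrin receptor, with 0.09, at 2.37 and 2.59 FPKM. UNC5A, listed only above, had 43.1 and 47.4, a ratio of 0.13.

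The netrins themselves were low. NTN1, the main netrin of the spinal cord, lay between 7.37 and 8.01 in the 4 groups, with ratios of 0.03 and 0.10. NTN4 lay between 1.82 and 2.40, with ratios of -0.27 and -0.13, and NTN3, listed only above, had a mean of 2.57, with a ratio of -0.05. UNC50, the match by letters, lay between 155 and 179, with ratios of -0.16 and -0.09.

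The 4 groups were then set side by side for the genes listed at both sites. The synj1+/+ group below the lesion held the lowest of the 4 values in 28 of the 57 guidance genes (49.1%) and in 30.7% of all 12023 genes. It held the highest in 14 (24.6%) and in 28.4% of all genes. Among the 9 genes lower in synj1+/- below the lesion it was the highest group in 9, and among the 9 higher ones it was the lowest in 8, with SEMA6C the exception. These last counts follow in part from the choice of genes, because this group stands in the ratio that chose them. The same group held the highest fibroblast marker sum over markers listed at both sites, 509 against 54.6 to 88.0 in the other 3 groups. It also held the lowest neuronal sum, 13984 against 14879 to 17597. The neuronal markers were divided. SYT1, ELAVL3, STMN2, SYP and CELF4 were lowest in this group, CELF4 with 4325 FPKM against 5285 in synj1+/+ above. TUBB3, SNAP25, NEFL, NEFM, NEFH and UCHL1 were not, NEFL with 764 against 678 in synj1+/+ above.

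**Figure D4:**
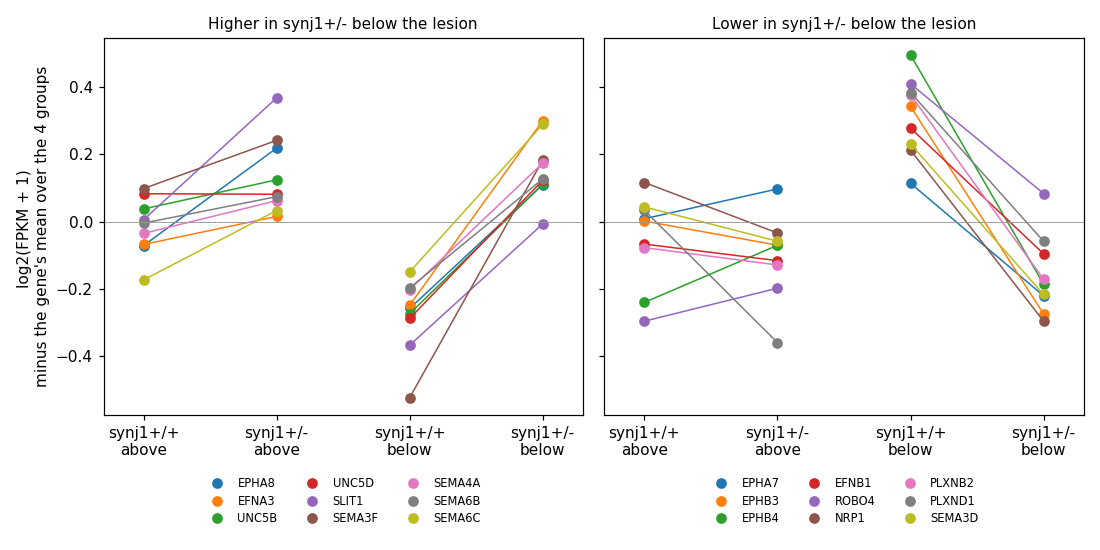
Log2(FPKM + 1) of each gene minus its mean over the 4 groups, for the 9 guidance genes higher (left) and the 9 lower (right) in synj1+/- below the lesion; lines join the 2 genotypes of a site and each point is 1 combined value. In the right panel synj1+/+ below is the highest of the 4 groups in 9 of 9 genes, and in the left panel it is the lowest in 8 of 9, SEMA6C being the exception.

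The second question was how the guidance genes differed between the segments below and above the lesion within a genotype. These ratios are below over above, relative to the median of all genes listed at both sites, since the sites were normalized separately. They share groups with the genotype ratios and are given only beside them. In synj1+/+, 7 of 57 genes (12.3%) were higher below, where 10.2% of all genes were, and 9 (15.8%) were lower, where 7.77% of all genes were. The higher ones were EFNA1, EFNB1, EPHB3, EPHB4, PLXNB2, PLXND1 and ROBO4, and the lower ones EPHA5, EPHB1, PLXNB1, SEMA3B, SEMA3F, SEMA5A, SEMA5B, SLIT1 and UNC5D. In synj1+/-, SEMA5B alone was higher below (1 of 57, 1.75%), where 5.66% of all genes were, and EPHA7, SEMA3B, SEMA5A and SLIT1 were lower (7.02%), where 5.21% were. The median over the 57 genes was -0.11 in synj1+/+ and -0.03 in synj1+/-, against 0 for all genes by construction.

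SEMA3B, SEMA5A and SLIT1 were lower below the lesion in both genotypes, and 0 genes were higher in both. SEMA3B, a secreted semaphorin known from the floor plate, had the largest such difference, with 274 FPKM above and 157 below in synj1+/+ and 308 and 181 in synj1+/-, site ratios of -0.80 and -0.79. Both values below the lesion were under both values above it. SEMA5A had 43.9 and 29.4 in synj1+/+ and 36.7 and 29.6 in synj1+/-, site ratios of -0.56 and -0.33, and SLIT1 had site ratios of -0.37 and -0.40. SEMA3B and SEMA3F are neighbours on chromosome 9, with 72.3 kb between them, and SEMA3F had site ratios of -0.62 in synj1+/+ and -0.08 in synj1+/-. No guidance gene passed a fold of 2 between the sites in both genotypes.

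The genes that were higher below the lesion in synj1+/+ had site ratios within the fold in synj1+/-. Smaller ratios in synj1+/- follow in part from the choice of genes, because the synj1+/+ ratio chose them. EPHB4 had 0.74 in synj1+/+ and -0.14 in synj1+/-, ROBO4 0.71 and 0.26, PLXNB2 0.45 and -0.06, EFNA1 0.40 and 0.04, PLXND1 0.35 and 0.28, EFNB1 0.34 and -0.00, and EPHB3 0.34 and -0.23. In synj1+/- the ratios of ROBO4, PLXND1 and EFNA1 were also over 0, all within the fold. Whether the site ratio differs between the genotypes was not tested.

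**Figure D5:**
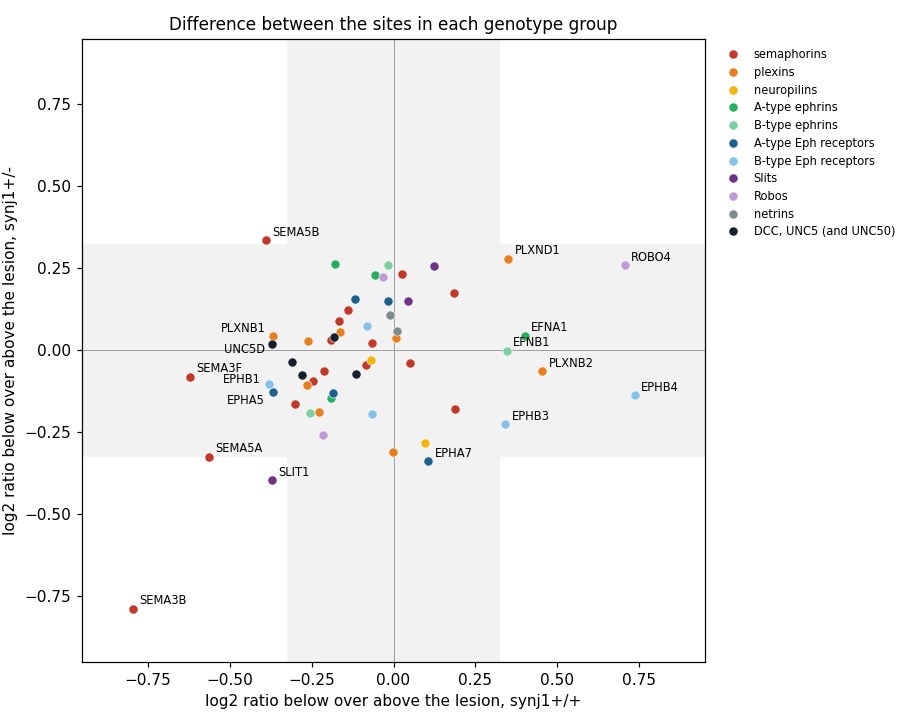
Log2 ratio of FPKM + 1 below over above the lesion in synj1+/+ (horizontal axis) and in synj1+/- (vertical axis), each relative to the median of all genes, for the 57 guidance genes listed at both sites; grey bands mark ratios within 0.32 of 0, and genes past it in either genotype are named. SEMA3B stands alone at the lower left, near -0.80 on both axes, and the points spread further along the horizontal axis than along the vertical one.

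Guidance genes outside the named families were counted in the same way. Of 30 co-receptors and other cues, 26 were listed above the lesion, where 0 were higher and 1 was lower, against 4.18% and 7.43% of all genes. The lower one was NRCAM, a neuronal adhesion molecule that partners with neuropilins, with 2976 FPKM in synj1+/+ and 2300 in synj1+/-, a ratio of -0.37. Below the lesion 22 were listed, 2 higher and 2 lower, against 8.07% and 11.5% of all genes. DSCAM, a receptor that takes part in netrin responses, had 45.2 and 59.4, a ratio of 0.39, and NTNG1, a membrane-anchored netrin relative, had 113 and 147, a ratio of 0.37. ITGB1, the integrin beta 1 chain found on most cells, was lower with 49.9 and 33.9, a ratio of -0.55, and so was FLRT2, an adhesion ligand of UNC5D, with 16.6 and 12.2, a ratio of -0.41. The medians of this list were -0.01 above and 0.10 below.

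The intracellular arm of the pathway was the last list. Of 50 signalling genes, 49 were listed above the lesion, with 0 higher and 2 lower, against 4.18% and 7.43% of all genes, and with 14 ratios over 0. Listed in the segment below were 41, with 2 higher and 3 lower, against 8.07% and 11.5% of all genes, and with 21 ratios over 0. FES, a tyrosine kinase that acts downstream of plexins and is abundant in myeloid cells, was lower at both sites, with 19.3 and 10.2 FPKM above and 17.2 and 11.8 below, ratios of -0.85 and -0.50. ABL2, a kinase of the actin cytoskeleton, was lower above, with 110 and 76.9, a ratio of -0.51. Below the lesion TIAM1, a Rac exchange factor, was higher with 83.4 and 116.7, a ratio of 0.48. MYO10, a filopodial myosin, was lower with 85.8 and 64.7, a ratio of -0.40. The medians were -0.04 above and 0.01 below.

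Of the 71 protein-coding genes that match the same names in the GENCODE annotation of GRCm38, EFNA4, EPHA1, EPHA2, EPHA3, NTN5, ROBO3 and UNC5CL were listed at neither site. They could therefore not be analysed. A missing entry cannot be read as a low level, since SEMA6D, the highest guidance gene above the lesion, was not listed below it.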

How the data were processed

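Each segment of spinal cord gave 1 library, prepared with a TruSeq v2 kit that does not mark strand. Per the submitters' processing notes, reads were handled with STAR 2.5.4b and Cuffdiff 1.3.0 on GRCm38.p6; the gene annotation is not given in the sources used here. Per the methods, libraries of a site were randomly brought to equal read numbers, and the table itself shows no depth. The authors deposited 1 table with a value for each genotype, gene and site. Since none of these values is under 1 and 19 equal 1, they were taken to be FPKM with 1 added, and 1 was subtracted. The columns with the authors' fold change, p-value and q-value hold their own comparison and were not used. The table has 0 columns of single libraries, so no error, interval or test was computed, and 3 symbols listed more than once at a site were left out.

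Groups came from the labels. Log2 ratios of FPKM + 1 were computed for all genes, those between sites after subtracting the median of all genes. The gene families, marker lists and other lists were chosen with earlier results of these data known, and a further pseudocount, scaling, fold and level limit were tried. Every guidance gene past the fold is named, as are the 2 highest of each family, genes past the fold in the 2 other guidance lists (not every one is reported here), and, after their values were seen, low genes that complete a family. Gene positions are from the GENCODE annotation and promoters from RefSeq. Python 3.11.15, numpy 2.4.6, pandas 2.3.3 and matplotlib 3.10.9 were used. The arithmetic of ratios and calls was checked on simulated group values with set folds and no noise. That check does not bear on how reliable the counts of guidance genes are.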

Additional observations from a re-analysis of the deposited data

How the results depend on the processing

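With 1 combined value a group, leaving out a replicate was not possible. No paired analysis was possible because each group value combines 3 libraries and no column holds a single one. The 8 counts of guidance genes past the fold (higher and lower, in each of 4 comparisons) stayed within 1.5 times when only genes listed at both sites were used and when UNC50 was left out. With a pseudocount of 10 in place of 1, the genotype counts became 0 (higher) and 1 (lower) in the segment above and 4 and 2 in the one below, and between the sites 2 were higher below in synj1+/+, 0 higher and 1 lower in synj1+/-. With a pseudocount of 0, 3 genes were higher below than above in synj1+/-. With a mean FPKM of at least 10, 2 genes were lower above, 4 lower below and 2 higher below than above in synj1+/+, where 5.90%, 9.37% and 8.94% of all such genes passed. At a fold of 1.5 the genotype counts were 0 (higher) and 1 (lower) above, where 0.792% and 1.93% of all genes passed, and 1 and 2 below, where 1.16% and 4.37% did. Between the sites 2 were higher and 2 lower in synj1+/+, where 3.25% and 1.34% of all genes passed. In synj1+/- 0 were higher and 1 lower, where 1.31% and 0.915% did. Another scaling between the groups left 2 genes lower below than above in synj1+/-. The share of all genes is not given for this scaling or the other pseudocounts, so those counts cannot be set against it. Single ratios were checked only for genes past the fold between the genotypes with a mean FPKM of at least 10 and for the 2 highest of each family. None of these 116 ratios changed sign while past the fold. With a pseudocount of 10, 14 of the 116 moved by over 0.1, against 0 with a pseudocount of 0 or the other scaling. The lower genes past the fold, EPHB4, EPHB3, EFNB1, PLXND1, SEMA3D, EPHA8 and EPHA6, were not in this check, although a pseudocount weighs most on such genes. Most lower genes below the lesion are low in level (5 of 9 have a mean FPKM under 10), and how far such values vary between animals is unknown.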
